A study of Homo sapiens with 12 samples.

Results

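The transcription factor MYC, the non-coding RNA gene PVT1 beside it, the MYC partner MAX, the antagonists MXD1, MXD3, MXD4, MXI1 and MNT, the related factor MLX and the blood factor MYB were followed in HL-60 cells under decitabine. These 10 genes were chosen by symbol from a table of 60240 genes. All 10 passed the filter on low values, a normalised count of at least 10 in at least 2 libraries, which left 16152 genes to be tested.

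HL-60 is an established human line of promyelocyte-like acute myeloid leukaemia cells whose genome carries an amplified MYC locus. Decitabine, a nucleoside analogue that becomes part of newly made DNA and depletes the maintenance DNA methyltransferase, was given at 100 nM. Decitabine cells taken at 6 h had received the dose at 0 h alone, and those taken at 72 h and 120 h had received it at 0, 24 and 48 h. DMSO cells, which received the vehicle, were taken at the same 3 times. All cells were of WT genotype and were seeded at 100000 per mL in duplicate wells. Each group had 2 libraries of total RNA depleted of ribosomal RNA, except DMSO at 72 h, for which 1 library was analysed and replicate 2 was not analysed here. The duplicates were wells of a single line that no label calls separate cultures, and the spread behind every p-value is that between wells, which may be technical.

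MYC binds DNA together with MAX at E-boxes and activates genes for ribosome assembly, nucleotide synthesis and growth. MAX also pairs with MXD1, MXD3, MXD4, MXI1 and MNT, which bring SIN3 and histone deacetylase corepressors to the same sites and so oppose MYC. MLX pairs with some of these antagonists and with the glucose-sensing Mondo proteins MLXIP and MLXIPL. MYB belongs to another DNA-binding family and keeps blood progenitors immature, and PVT1 transcripts have been tied to the stability of MYC protein. In the myeloid lineage, falling MYC and MYB and rising MXD1 are known to accompany maturation.

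RefSeq promoter windows of 250 bases before a start site were at hand for 8 of the 10 genes, in 11 entries, since MAX had 2 and MXI1 had 3. The E-box CACGTG, the letters bound by MYC, MAX and MXD dimers, was in 3 of the 11 windows (MXD4, MNT and MLX), against 6.35% of 35114 promoters. The GC box GGGCGG, searched on both strands like every motif here, was in 10 of the 11 and in 42.6% of all promoters. TAACNG, bound by MYB, was in 2 of the MXI1 windows and in 17.6% of all, and no window held the letters TATAAA, found in 10.7% of all. Cytosine-guanine pairs, the sites that DNA methyltransferases act on, numbered 10 in the MXD3 window, 16 in that of MXD1, 30 in that of MLX, 34 in that of MYB and 35 in that of MNT, against a median of 11 over all promoters. A match of letters is a description and not a bound site, and these data hold no measurement of DNA methylation. The stretches of the windows that lie before the annotated exons are shown for MXD1 and MXD3, the antagonists that rose under decitabine. They are also shown for MNT and MLX, whose stretches hold an E-box. The MXD4 stretch, of 65 bases, holds an E-box too and is not shown. Those shown read 5′ to 3′ on the strand of the gene, with E-boxes and GC boxes in capitals. The MXD1 stretch is chr2:69914859-69915040 on the plus strand, the MXD3 stretch chr5:177312758-177313002 on the minus strand, the MNT stretch chr17:2401119-2401310 on the minus strand and the MLX stretch chr17:42566850-42567067 on the plus strand.
MXD1: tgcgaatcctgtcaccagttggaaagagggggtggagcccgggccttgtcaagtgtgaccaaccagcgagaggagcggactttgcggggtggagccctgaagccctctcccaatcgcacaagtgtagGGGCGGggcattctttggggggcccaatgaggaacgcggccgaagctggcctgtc
MXD3: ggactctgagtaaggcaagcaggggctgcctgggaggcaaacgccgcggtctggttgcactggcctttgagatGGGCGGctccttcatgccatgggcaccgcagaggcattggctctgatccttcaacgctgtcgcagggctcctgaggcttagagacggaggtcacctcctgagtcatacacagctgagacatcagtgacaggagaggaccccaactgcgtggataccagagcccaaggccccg
MNT: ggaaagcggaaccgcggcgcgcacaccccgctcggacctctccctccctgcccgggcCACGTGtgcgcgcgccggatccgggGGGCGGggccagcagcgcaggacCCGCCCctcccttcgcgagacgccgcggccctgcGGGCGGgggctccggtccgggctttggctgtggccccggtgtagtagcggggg
MLX: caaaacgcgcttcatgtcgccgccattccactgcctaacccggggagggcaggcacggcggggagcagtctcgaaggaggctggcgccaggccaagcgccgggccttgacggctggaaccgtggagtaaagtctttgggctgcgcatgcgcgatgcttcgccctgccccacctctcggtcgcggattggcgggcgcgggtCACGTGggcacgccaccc
The E-box of MNT began 193 bases before its start site and that of MLX 50 bases before. Neither the MXD1 nor the MXD3 window held an E-box. The GC box of MXD3 began 177 bases before its start site, and that shown for MXD1 began 123 bases before.

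In the RefSeq annotation of GRCh38.p14, MYC spans chromosome 8 from 127735434 to 127742951 and PVT1 lies after it on the same strand, from 127794524 to 128101256. MAX lies on chromosome 14 from 65006101 to 65102695, and MXD1 on chromosome 2 from 69915109 to 69942945. MXD3 lies on chromosome 5 from 177305499 to 177312752 and MXD4 on chromosome 4 from 2247432 to 2262109. MXI1 lies on chromosome 10 from 110207605 to 110287365, and MYB on chromosome 6 from 135181308 to 135219172. Chromosome 17 carries both MNT, from 2384073 to 2401060, and MLX, from 42567100 to 42573203.

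Values are the authors' normalised counts, and estimated depth ran from 14427331 to 32908419 counts per library. The decitabine 72 h libraries lay 0.59 apart (median absolute log2 difference), against 0.19 to 0.261 in the other pairs. FP671120.7, a gene entry read here as a sign of library quality, made up 3.89 to 10.9% of counts in 5 libraries. These were the 4 at 120 h and decitabine 72 h replicate 1, and in the other 6 it made up 0.0424 to 0.794%. The origin of its reads was not tested. Mitochondrial mRNAs made up 0.662 to 0.812% in those 5 libraries and 0.238 to 0.415% in the other 6. At 120 h both arms thus lay on one side of this split and at 6 h both lay on the other, while at 72 h the decitabine libraries were divided by it. All 7 promyelocyte markers (MPO, ELANE, AZU1, PRTN3, CTSG, CD33 and SPI1) reached 10. Their summed level was 90148 to 142358 in decitabine libraries and 115319 to 185824 in DMSO libraries. Most of each sum was MPO, which alone ran from 86061 to 178349. At 120 h 2 of the 7 had a positive log2 fold change, and none was called. The 11 markers of lymphoid, epithelial, stromal, liver, erythroid and endothelial cells summed to 3.83 to 19.9 in decitabine libraries and 1.5 to 7.25 in DMSO libraries. None of the 11 was tested, and HBB was at 0 in every library.

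MYC was lower in decitabine cells at 72 h and 120 h, and MXD1 and MXD3 were higher at 120 h, while MAX, MXD4, MXI1, MNT, MLX, PVT1 and MYB passed no test. By limma on log2(normalised count + 1), with Benjamini-Hochberg adjustment over all 16152 genes and a call at an adjusted p under 0.05, 3 of the 10 genes were called at 120 h, against 15.9% of all tested genes. These were MYC, lower as were 6.00% of all genes, and MXD1 and MXD3, higher as were 9.91% of all genes. The 1601 higher and 969 lower genes became 1513 and 1466 with quantile normalisation. At 72 h 1 of the 10 was called, MYC, against 2.19% of all tested genes (1.88% higher and 0.310% lower, or 303 and 50 genes, which became 284 and 97 with quantile normalisation). At 6 h 0 of the 10 were called, as for all genes (0%), and 541 genes or 3.35% had an unadjusted p under 0.05, MXD4 alone among the 10. Limma without a trend called 3 genes at 6 h, none of them a member. Over all tested genes the median log2 fold change was -0.01 at 6 h, 0.09 at 72 h and 0.07 at 120 h.

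**Figure D1:**
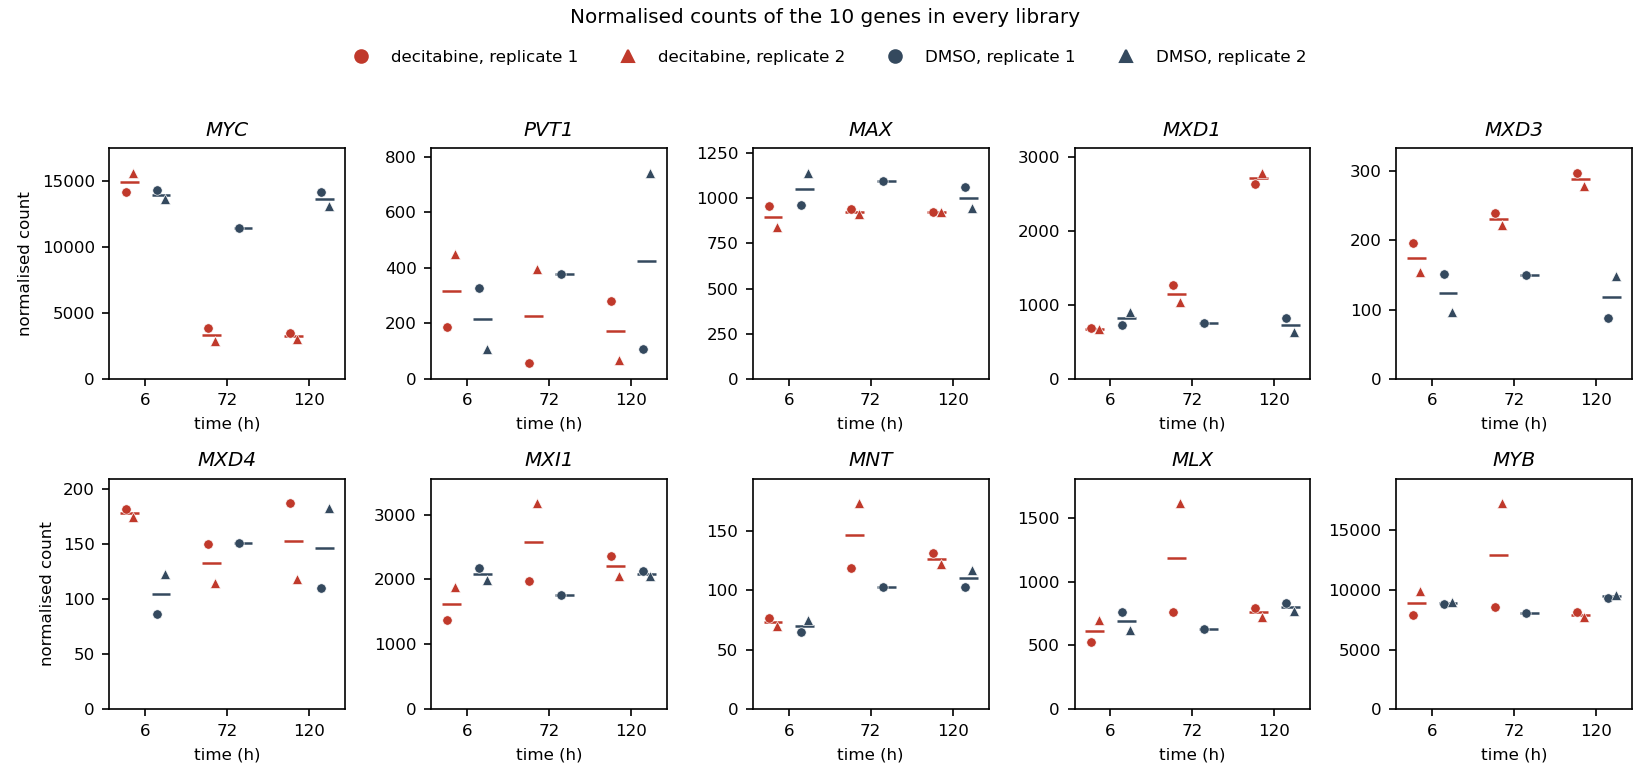
Normalised counts of the 10 genes (y axis, from 0) by time (x axis, h) in the decitabine libraries (red) and the DMSO libraries (dark blue). Circles are replicate 1, triangles replicate 2, and short lines the group means. MYC lies between 2839 and 3872 in the decitabine libraries of 72 h and 120 h and at or above 11410 in all others, and MXD1 is highest in the decitabine libraries of 120 h.

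MYC had 14182 and 15597 normalised counts in decitabine cells at 6 h, against 14312 and 13615 in DMSO cells. At 72 h it had 3872 and 2839 in decitabine cells, against 11410 in the single DMSO library. At 120 h it had 3444 and 3033 in decitabine cells, against 14185 and 13100 in DMSO cells. The groups overlapped at 6 h and lay apart at 72 h and 120 h, with the decitabine libraries low, as for 27.6% of all tested genes at 72 h and 30.6% at 120 h. The fitted log2 fold change was 0.09 at 6 h (95% interval -0.33 to 0.51). It was -1.78 at 72 h (SE 0.226, adjusted p = 0.00776), which put MYC at 0.291 of its DMSO level. It was -2.08 at 120 h (SE 0.185, adjusted p = 0.000342), or 0.237 of the DMSO level. In this bulk RNA, fewer cells that express MYC and less MYC RNA per cell cannot be told apart.

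The MYC call at 120 h held in each of the 23 alternative fits tried, with log2 fold changes of -2.17 to -1.98 when a 120 h library was left out and -2.08 in the 120 h libraries alone (adjusted p = 0.00138). The call at 72 h held without decitabine replicate 1, which lay on the other side of the library split, at -2.01 (adjusted p = 0.000428), and without replicate 2 at -1.56 (adjusted p = 0.00466). Each of these fits sets 1 decitabine library against 1 DMSO library at 72 h and takes the spread from the other times, without the pair that lay 0.59 apart, and they called 4759 and 726 of all genes at 72 h, against 353 with every library. In the 3 libraries of 72 h alone, with DMSO represented once, the log2 fold change stayed at -1.78 and the adjusted p was 0.996.

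In DMSO cells MYC was not called between times. It averaged 13963 ± 493 at 6 h (SD, n = 2), 11410 at 72 h (n = 1) and 13642 ± 768 at 120 h (SD, n = 2). The log2 differences from 6 h were -0.29 at 72 h (95% interval -0.81 to 0.23) and -0.03 at 120 h (-0.46 to 0.39). In decitabine cells MYC averaged 3239 ± 290 at 120 h and 3356 ± 730 at 72 h (SD, n = 2 each), a log2 difference of -0.04 (95% interval -0.46 to 0.39) that limma did not call (adjusted p = 0.93).

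**Figure D2:**
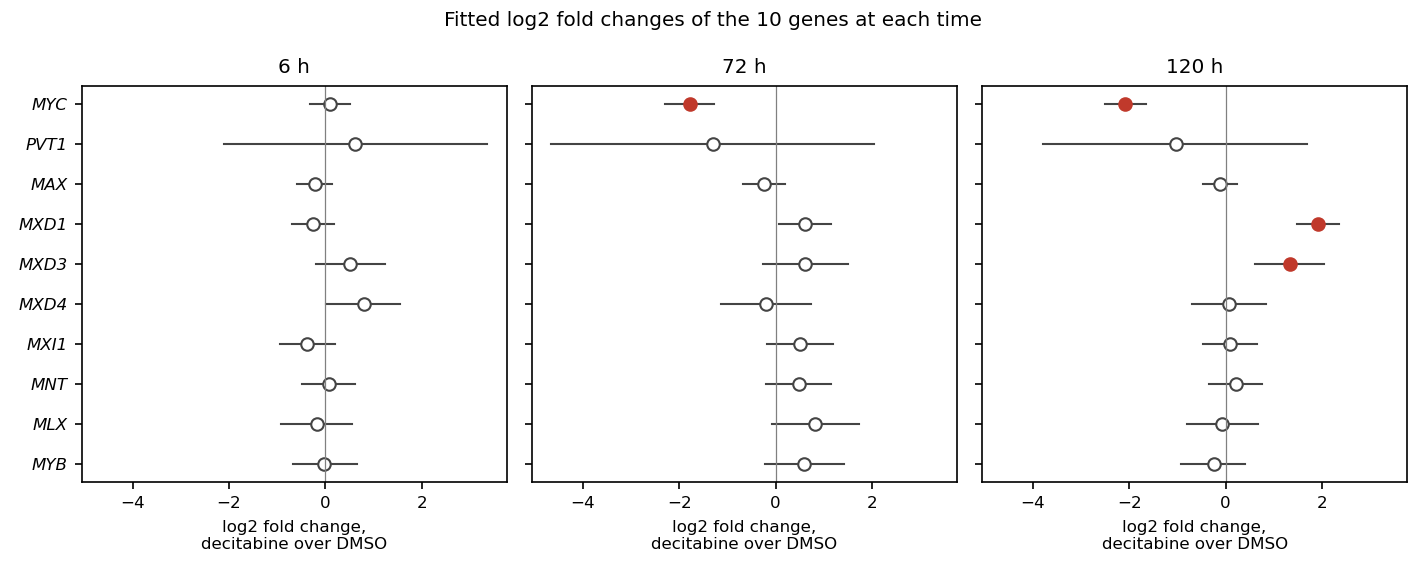
Fitted log2 fold changes, decitabine over DMSO (x axis), of the 10 genes (rows) at 6 h, 72 h and 120 h. Points are estimates, lines their 95% intervals, and filled red points passed an adjusted p under 0.05. MYC stands at -1.78 at 72 h and -2.08 at 120 h, MXD1 at 1.92 and MXD3 at 1.33 at 120 h, and the line of PVT1 is the longest in each panel.

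PVT1, transcribed next to MYC, was called at no time and varied widely between duplicates. It had 185 and 450 normalised counts in decitabine cells and 326 and 107 in DMSO cells at 6 h. It had 58.3 and 396 in decitabine cells and 377 in the DMSO library at 72 h. It had 281 and 66.5 in decitabine cells and 108 and 742 in DMSO cells at 120 h. High and low values occurred in both arms, and the ranges overlapped at 6 h, 72 h and 120 h. The log2 fold change at 120 h was -1.04 with a 95% interval of -3.78 to 1.69, which holds both no change and the value of MYC.

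Duplicates of PVT1 differed by up to 6.88-fold, at 120 h in DMSO. Its standard deviation within groups, 1.54 on the log2 scale, was larger than that of 98.0% of all tested genes and of 99.5% of the 1730 genes of like level. The estimated reads behind it were 84 to 1105 per library, and MYC, with 4109 to 38323, had a standard deviation of 0.16.

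Other genes around MYC on 8q24 were read from a list of 17, of which 16 were in the table and 10 were tested. At 120 h 1 was called lower and 0 higher, close to the 6.00% lower and 9.91% higher among all genes. That gene, SQLE, which encodes the cholesterol synthesis enzyme squalene epoxidase, had 1136 and 1103 in decitabine cells, against 1679 and 1909 in DMSO cells (log2 fold change -0.68, SE 0.139, adjusted p = 0.0139). Its call was lost without either decitabine 120 h library and without DMSO 120 h replicate 2, with adjusted p-values of up to 0.104 over all 23 alternatives. TRIB1, a pseudokinase gene on the centromeric side of MYC, had a log2 fold change of -0.60 (adjusted p = 0.0902). CASC11, a non-coding RNA gene next to MYC, had 98.4 and 89.0 in decitabine cells, against 75.2 and 87.8 in DMSO cells, and CCDC26, beyond PVT1, had 957 and 868 against 1016 and 1023. The median log2 fold change of the 10 was 0.23, against 0.07 over all genes. The 10 ran from -0.68 to 1.13, with 7 of them above 0 and none of these called.

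MAX, the shared partner, was nearly flat. It had 924 and 922 normalised counts in decitabine cells at 120 h, against 1063 and 944 in DMSO cells. Over all 11 libraries it ran from 842 to 1140, and its standard deviation within groups, 0.11 on the log2 scale, was larger than that of 5.82% of all tested genes. At each time its decitabine values lay below the DMSO ones, as in 20.8% of all tested genes at 6 h, 27.6% at 72 h and 30.6% at 120 h. The log2 fold changes were -0.22, -0.24 and -0.12 at 6, 72 and 120 h, and the 95% interval at 120 h was -0.48 to 0.24. A change of a size within these bounds remains compatible with these values.

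Of the 5 antagonists, MXD1 had the largest log2 fold change at 120 h. MXD1, first described as Mad1, had 687 and 671 normalised counts in decitabine cells at 6 h, against 735 and 903 in DMSO cells. At 72 h it had 1268 and 1037 in decitabine cells, against 752 in the DMSO library. At 120 h it had 2640 and 2786 in decitabine cells, against 819 and 630 in DMSO cells. Decitabine libraries were the lower ones at 6 h and the higher ones at 72 h and 120 h, with no overlap at these 3 times. Among all tested genes the decitabine libraries lay wholly below at 6 h in 20.8%, wholly above at 72 h in 37.5% and wholly above at 120 h in 36.1%. At 120 h MXD1 rose 3.77-fold (log2 fold change 1.92, SE 0.192, adjusted p = 0.000562), a call kept in all 23 alternatives. At 72 h the log2 fold change was 0.61 (95% interval 0.07 to 1.15, adjusted p = 0.228), and it passed only with the DMSO libraries of all times as the reference (0.59, adjusted p = 0.023). Within decitabine cells MXD1 averaged 2713 ± 103 at 120 h and 1153 ± 164 at 72 h (SD, n = 2 each), a log2 difference of 1.24 (adjusted p = 0.0719). That difference passed with a pseudocount of 5, with no filter, and without decitabine 72 h replicate 1, which leaves 1 decitabine library at 72 h (1.39, adjusted p = 0.00151), and not in the other 18 of 21 alternatives.

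MXD3, another MXD repressor, rose as well, from a low level and with less margin. It had 297 and 279 normalised counts in decitabine cells at 120 h, against 87.1 and 149 in DMSO cells. It had 240 and 222 in decitabine cells and 150 in the DMSO library at 72 h, and 196 and 154 in decitabine cells and 152 and 95.8 in DMSO cells at 6 h. Decitabine libraries were above the DMSO ones at every time, as in 18.2% of all tested genes at 6 h, 37.5% at 72 h and 36.1% at 120 h, each time taken alone. The rise was 2.51-fold at 120 h (log2 fold change 1.33, SE 0.313, adjusted p = 0.0231) and was not called at 72 h (0.62, adjusted p = 0.432). At 6 h the log2 fold change was 0.52 (95% interval -0.19 to 1.24). The effect at 120 h minus that at 6 h was 0.81 (95% interval -0.21 to 1.82) and was not called. The call at 120 h was lost without decitabine 120 h replicate 1 (adjusted p = 0.134), without replicate 2 (adjusted p = 0.112), without DMSO 120 h replicate 1 (log2 fold change 0.94, adjusted p = 0.135) and with no filter (adjusted p = 0.06). An exon of MXD3 overlaps PRELID1 on the opposite strand, which had 415 to 1460 normalised counts. The sources used here do not state whether the counting used the strand, so reads from the overlap cannot be told apart.

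The remaining antagonists gave no call. MXD4 had 187 and 118 in decitabine cells and 110 and 183 in DMSO cells at 120 h, with the groups overlapping. At 6 h it had 182 and 175 in decitabine cells, against 86.5 and 123 in DMSO cells, a log2 fold change of 0.79 (unadjusted p = 0.0446, limma adjusted p = 1). MXI1, the most abundant of the 5 per length of exon in DMSO cells, had 2367 and 2055 in decitabine cells and 2123 and 2056 in DMSO cells at 120 h (log2 fold change 0.08, 95% interval -0.48 to 0.64). MNT, the antagonist that is expressed in growing and resting cells alike, had 131 and 122 in decitabine cells and 103 and 117 in DMSO cells at 120 h (0.21, 95% interval -0.34 to 0.75). Its decitabine values lay above the DMSO ones at 72 h and 120 h, as in 37.5% and 36.1% of all tested genes, and overlapped them at 6 h. In DMSO cells MNT averaged 110 ± 9.34 at 120 h and 70.0 ± 6.84 at 6 h (SD, n = 2 each), a log2 difference of 0.65 (unadjusted p = 0.0259, limma adjusted p = 0.92). That comparison runs along the split in FP671120.7 and mitochondrial mRNA, and culture time and library split cannot be told apart in it.

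MLX had 795 and 725 normalised counts in decitabine cells and 829 and 769 in DMSO cells at 120 h, a log2 fold change of -0.07 (95% interval -0.81 to 0.67). At 72 h it had 760 and 1614 in decitabine cells, against 625 in the DMSO library (0.82, adjusted p = 0.319). Replicate 2 stood far above replicate 1, which lay near the DMSO library. MLX shares exon sequence with PSMC3IP on the opposite strand, which had 230 to 879 normalised counts. Of its partners, MLXIP (MondoA) had a log2 fold change of 0.75 at 120 h (adjusted p = 0.138) and MLXIPL one of 0.41 (adjusted p = 0.734).

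MYB, the other proto-oncogene of the group, was called at no time. It had 7863 and 9880 normalised counts in decitabine cells and 8799 and 9019 in DMSO cells at 6 h. It had 8608 and 17264 in decitabine cells and 8061 in the DMSO library at 72 h. It had 8117 and 7759 in decitabine cells, against 9322 and 9579 in DMSO cells, at 120 h. The 120 h groups did not overlap and the decitabine libraries were lower, as in 30.6% of all tested genes, and the log2 fold change of -0.25 (SE 0.292, 95% interval -0.92 to 0.41) was not called (adjusted p = 0.619). The lower bound of this interval, -0.92, lies above the upper bound for MYC, -1.65. Its neighbours on 6q23 were not called either: HBS1L had -0.43 (adjusted p = 0.226) and AHI1 0.43 (adjusted p = 0.307) at 120 h, and the third gene listed, ALDH8A1, was under the filter.

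Decitabine 72 h replicate 2 held the highest value of all 11 libraries for MYB, MLX, MXI1 and MNT. These values exceeded the next highest by 1.75-fold for MYB, 1.95-fold for MLX, 1.34-fold for MXI1 and 1.31-fold for MNT. MYC was lowest of all libraries in it. This library was highest for 26.0% and lowest for 20.7% of all tested genes. Without decitabine 72 h replicate 1, and so from replicate 2 alone, MYB (log2 fold change 1.10, adjusted p = 0.00265), MLX (1.37, adjusted p = 0.005) and MXI1 (0.85, adjusted p = 0.0221) were called higher at 72 h, in the fit with 1 library of each arm that called 4759 of all genes at that time. Without replicate 2 the log2 fold changes at 72 h were 0.09 for MYB, 0.28 for MLX and 0.17 for MXI1. The share of these differences that the library split accounts for was not tested.

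Levels of different genes were compared per kb of annotated exon (GENCODE 29), as a percentage of the MYC level in the same library. MXD1 stood at 41.0 and 49.1% of MYC in decitabine cells at 120 h, against 3.09 and 2.57% in DMSO cells. At 72 h it stood at 17.5 and 19.5% in decitabine cells, against 3.52% in the DMSO library, and at 6 h at 2.59 and 2.3% in decitabine cells, against 2.74 and 3.54% in DMSO cells. MAX reached 19.6 and 22.2% of MYC in decitabine cells at 120 h, against 5.48 and 5.27% in DMSO cells, with its own level nearly flat. The 5 antagonists summed gave 106 and 113% of MYC in decitabine cells at 120 h, against 15.7 and 16.8% in DMSO cells. Their own summed level per kb was 1217 and 1142 in decitabine cells, against 744 and 734 in DMSO cells. MYB stood at 152 and 165% of MYC in decitabine cells, against 42.4 and 47.2% in DMSO cells at 120 h, so that the order of the 2 most abundant genes was turned. These ratios rest on the same MYC values as above and are RNA levels, not protein.

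**Figure D3:**
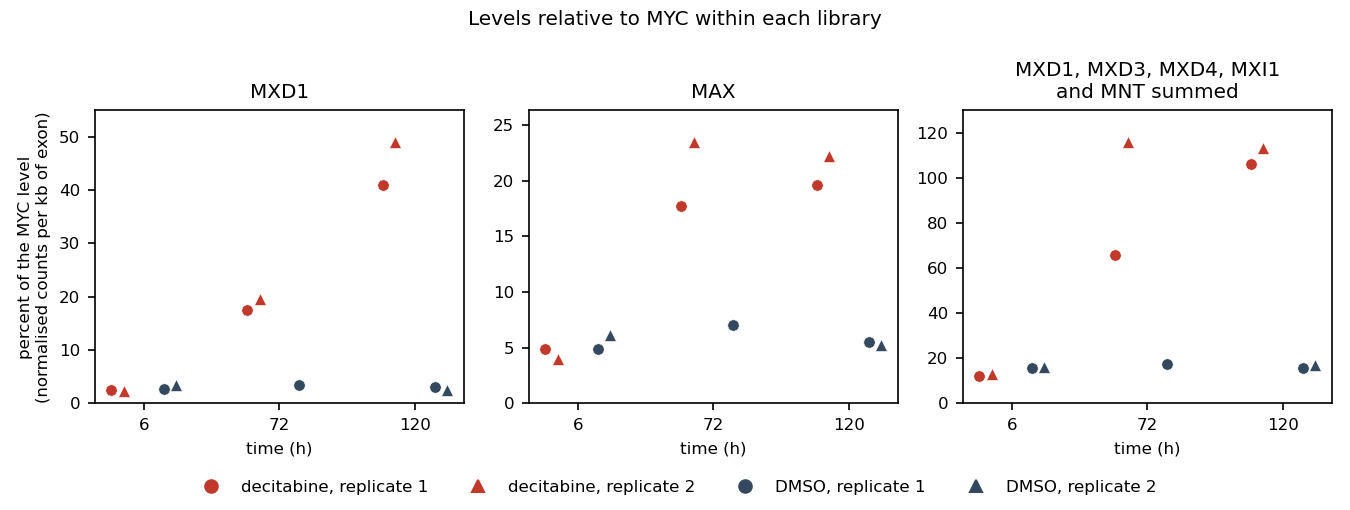
Level per kb of exon as a percentage of the MYC level in the same library (y axis, from 0), by time (x axis, h), for MXD1, for MAX and for the 5 antagonists summed. Red points are decitabine libraries and dark blue points DMSO libraries, circles replicate 1 and triangles replicate 2. At 120 h the summed antagonists stand at 106 and 113% in decitabine libraries and at 15.7 and 16.8% in DMSO libraries.

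The decitabine effects were then compared between times. For MYC the effect at 120 h minus that at 6 h was -2.17 on the log2 scale (SE 0.261, adjusted p = 0.00382), and for MXD1 it was 2.18 (SE 0.272, adjusted p = 0.00426). These 2 of the 10 genes were called in that comparison, against 5.90% of all genes, and both calls held in all 22 alternatives. The effect at 72 h minus that at 6 h was called for MYC alone (-1.87, SE 0.292, adjusted p = 0.0363), against 0.613% of all genes. That call was lost in 13 of 20 alternatives, among them each fit without a 6 h or 120 h library, with log2 values of -2.15 to -1.65 and adjusted p-values of 0.00125 to 0.148. Between 120 h and 72 h no effect differed past the threshold in any tested gene (0%) by limma, and 1022 genes or 6.33% had an unadjusted p under 0.05. MXD1 was among them at 1.31 (unadjusted p = 0.00231, adjusted p = 0.533), and without decitabine 72 h replicate 1 it had 1.45 (adjusted p = 0.011). That fit has 1 library of each arm at 72 h, takes the spread from the other times and called 2901 of all genes in this comparison. It also called MLX (-1.44, adjusted p = 0.0146) and MYB (-1.35, adjusted p = 0.00571).

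In DMSO cells alone, no member was called at 72 h against 6 h or at 120 h against 6 h, as for all genes (0% in both), while 456 genes (2.82%) and 865 genes (5.36%) had an unadjusted p under 0.05. In decitabine cells, 120 h against 72 h called 0.130% of all genes and none of the 10.

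Most genes known to be activated by MYC were lower at 120 h. Of 30 listed and tested, 20 fell and 1 rose, against 6.00% lower and 9.91% higher among all genes, and the list's median log2 fold change was -1.0, against 0.07 over all genes. The median was -0.05 at 6 h, with none called, and -0.49 at 72 h, with 2 lower and 1 higher. The list was drawn from textbook MYC targets with earlier results of these data known, and many of its members build ribosomes, so it describes these libraries and is no independent sign of MYC activity. The count of 20 was 9 and 7 without decitabine 120 h replicates 1 and 2, and 10 and 11 without DMSO 120 h replicates 1 and 2.

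TERT, the catalytic subunit of telomerase, had 54.7 and 47.4 normalised counts in decitabine cells at 120 h, against 160 and 297 in DMSO cells (log2 fold change -2.08, SE 0.488, adjusted p = 0.023). SRM, spermidine synthase, had 145 and 116 in decitabine cells, against 407 and 360 in DMSO cells (-1.55, SE 0.252, adjusted p = 0.00505). NOLC1, a nucleolar phosphoprotein of ribosome assembly, had 3713 and 3234 in decitabine cells, against 10328 and 9740 in DMSO cells (-1.53, adjusted p = 0.00667). HSPE1, the mitochondrial co-chaperonin, had 1480 and 1488 in decitabine cells, against 4252 and 3937 in DMSO cells (-1.46, SE 0.145, adjusted p = 0.000546). The 120 h groups did not overlap in these 4 genes, with decitabine lower as in 30.6% of all tested genes, and the HSPE1 call held in all 23 alternatives. Without decitabine 120 h replicate 2 the calls of SRM (adjusted p = 0.0521) and NOLC1 (adjusted p = 0.0631) were lost. The TERT call was lost without either decitabine 120 h library, without DMSO 120 h replicate 2 and with no filter (adjusted p up to 0.151). Against the direction of the list, CCND2, which encodes a G1 cyclin, rose. It was singled out after its values were seen, with 635 and 612 in decitabine cells, against 383 and 377 in DMSO cells (0.71, adjusted p = 0.0179), and its call was lost without any single 120 h library (adjusted p up to 0.122).

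At 72 h the calls in this list were ODC1, ornithine decarboxylase, POLR1B, a subunit of RNA polymerase I, and CCND2, all named after their values were seen. ODC1 had 3542 and 3620 normalised counts in decitabine cells, against 6482 in the DMSO library (log2 fold change -0.86, adjusted p = 0.0456). POLR1B had 680 and 844 in decitabine cells, against 1520 in the DMSO library (-1.0, adjusted p = 0.0466). CCND2 had 659 and 786 in decitabine cells, against 376 in the DMSO library (0.93, adjusted p = 0.0492). Each of these calls sat close to the threshold and was lost without any single 6 h or 120 h library.

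Some genes known to be repressed by MYC were higher. Of 8 listed, 7 were tested, GAS1 being under the filter, and 3 rose and 0 fell at 120 h, against 9.91% higher and 6.00% lower among all genes. The list's median log2 fold change was 0.04 at 6 h, 1.18 at 72 h and 1.10 at 120 h. This list too was drawn with earlier results of these data known and is no independent sign of MYC activity. CDKN2B, an inhibitor of CDK4 and CDK6, had 250 and 231 normalised counts in decitabine cells at 120 h, against 28.7 and 13.6 in DMSO cells (3.54, SE 0.391, adjusted p = 0.000882). CDKN1A, the p21 inhibitor, had 98.7 and 93.1 in decitabine cells, against 13.9 and 11 in DMSO cells (2.85, SE 0.437, adjusted p = 0.004). GADD45A, a growth arrest gene, had 353 and 340 in decitabine cells, against 135 and 136 in DMSO cells (1.35, adjusted p = 0.0315). The CDKN2B and CDKN1A calls held in all 23 alternatives, whereas that of GADD45A was lost in 10, among them each fit without a 6 h or 120 h library (adjusted p up to 0.153). At 72 h the call was NDRG1, named after its values were seen, with 1514 and 1993 in decitabine cells, against 630 in the DMSO library (1.46, adjusted p = 0.0211), a call lost without decitabine 120 h replicate 1 (adjusted p = 0.0606) or replicate 2 (adjusted p = 0.0616).

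**Figure D4:**
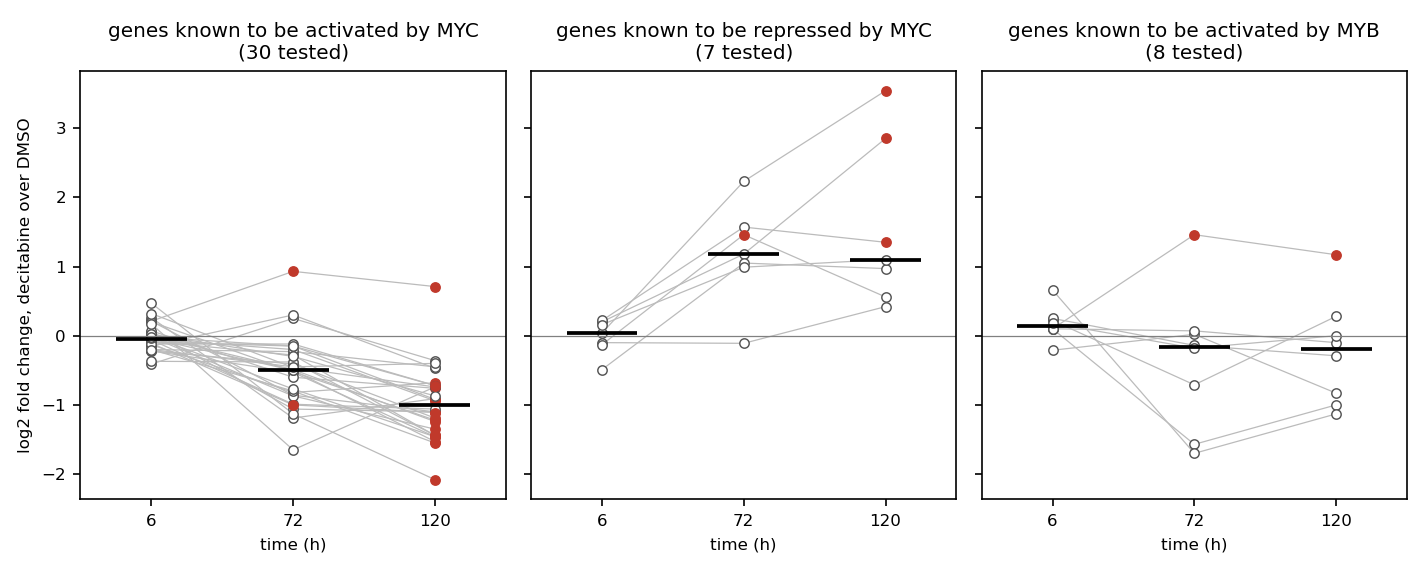
Log2 fold changes, decitabine over DMSO (y axis), at 6, 72 and 120 h (x axis) of the tested genes known to be activated by MYC, repressed by MYC and activated by MYB. Each point is a gene, filled red where its adjusted p was under 0.05, thin grey lines join the same gene, and black bars are list medians. The medians at 120 h are -1.0, 1.10 and -0.19.

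Among network factors outside the 10 genes, 6 of 7 were tested at 120 h, and 1 rose and 1 fell, against 9.91% higher and 6.00% lower among all genes, which a list this short cannot be told apart from. The median log2 fold change was 0.34, against 0.07 over all genes. TFAP4, an E-box factor that MYC is known to induce, had 292 and 251 normalised counts in decitabine cells, against 717 and 705 in DMSO cells (-1.39, SE 0.209, adjusted p = 0.00367), a call kept in all 23 alternatives. MYCL, a MYC paralogue, had 19.5 and 37.3 in decitabine cells, against 9.6 and 3.03 in DMSO cells (2.10, adjusted p = 0.043). It passed the filter through the decitabine libraries, being under 10 in every DMSO library, and its call was lost in 11 of 22 alternatives. Its call was lost without either decitabine 120 h library, without DMSO 120 h replicate 2 and without any single 6 h library (adjusted p up to 0.25), and its log2 fold change without DMSO 120 h replicate 2 was 1.40.

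Of 19 genes for MYC stability and cofactors, 3 fell and 0 rose at 120 h, against 6.00% lower and 9.91% higher among all genes, with a median log2 fold change of -0.19, against 0.07 over all genes. RUVBL2, an ATPase of chromatin and assembly complexes that binds MYC, had 1399 and 1386 in decitabine cells, against 2856 and 3707 in DMSO cells (-1.22, SE 0.181, adjusted p = 0.00349), a call kept in all 23 alternatives. Its partner RUVBL1 had 1190 and 1248 in decitabine cells, against 2213 and 2524 in DMSO cells (-0.96, adjusted p = 0.0454). HCFC1, a MYC-binding chromatin adaptor, was at -0.60 (adjusted p = 0.0498). Both of these calls were lost without any single 6 h or 120 h library, with adjusted p-values of up to 0.207 for RUVBL1 and 0.205 for HCFC1.

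Of 11 genes of the corepressors used by MXD proteins and MNT, 2 fell and 0 rose at 120 h, against 6.00% lower and 9.91% higher among all genes, with a median log2 fold change of -0.31, against 0.07 over all genes. RBBP7, a histone-binding subunit, was at -0.93 (adjusted p = 0.0441) and HDAC2, a histone deacetylase, at -0.68 (adjusted p = 0.0444). Both were lost in about as many alternatives as kept them, 12 and 11 of 23, among them fits without single 6 h and 120 h libraries (adjusted p up to 0.238 for RBBP7 and 0.217 for HDAC2). The log2 fold change of RBBP7 was -0.49 without decitabine 120 h replicate 1 and -1.37 without replicate 2. None of these corepressor genes was called at 6 h or 72 h.

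Downstream of MLX, 1 of 2 listed targets of its Mondo partners rose at 120 h, against 9.91% of all genes. TXNIP, an inhibitor of glucose uptake, had 5047 and 5517 normalised counts in decitabine cells, against 2238 and 2113 in DMSO cells (1.28, SE 0.259, adjusted p = 0.0131), and its call was lost without any single 120 h library (adjusted p up to 0.0946). ARRDC4 had 214 and 222 in decitabine cells, against 145 and 146 in DMSO cells (0.58, adjusted p = 0.0613).

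Genes known to be activated by MYB ran at 120 h from a log2 fold change of -1.13 for ELANE, the neutrophil elastase gene, which was not called, to 1.17 for CCNA1. Of 10 listed, 8 were tested, CD34 and GATA3 being under the filter, and 1 rose and 0 fell at 120 h, close to the 9.91% higher and 6.00% lower among all genes, with a median log2 fold change of -0.19. CCNA1, the cyclin A1 gene of myeloid and germ cells, had 1352 and 1386 in decitabine cells at 120 h, against 637 and 581 in DMSO cells (1.17, SE 0.173, adjusted p = 0.00348), kept in all 23 alternatives. It was also called at 72 h, with 1629 and 2157 in decitabine cells, against 681 in the DMSO library (1.46, adjusted p = 0.0141). GFI1, a granulocyte repressor gene, had 1985 and 2080 in decitabine cells and 2020 and 2041 in DMSO cells at 120 h (0.00, adjusted p = 0.998). BCL2, the survival gene, had 1093 and 962 in decitabine cells and 2004 and 1655 in DMSO cells (-0.83, adjusted p = 0.144). Of the MYB family and its coactivators, MYBL1, MYBL2, CREBBP and EP300, none of 4 was called at 120 h, and MYBL2, which serves the cell cycle, had 1253 and 1156 in decitabine cells, against 1626 and 1818 in DMSO cells (-0.51, adjusted p = 0.0949).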

How the data were processed

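RNA-seq values were analysed for 11 of the 12 labelled samples. Per the submitters' processing notes, hg38, Salmon 1.2.1, STAR, featureCounts, DESeq2 and limma were used, with no role or order given, and the sources used here do not name the annotation release. Deposited values are a non-negative signal, normalised by the authors with DESeq2 per the name of the deposited table. Of values under 10, 62.1 to 64.7% lay within 0.01 of a whole multiple of their library's step, so whole reads could not be recovered and no count model was run. The step was the most frequent value under 10 in a library, 0.407 to 0.961 normalised units, and was taken as the worth of a count. Estimated depths and reads rest on it.

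The heading names 12 libraries over 11 value fields, per the file headers. Reading it from the symbol leaves DMSO 72 h replicate 2 without values, on which every result rests. Libraries of a group then differed by 0.299 (mean of the median absolute log2 differences), against 0.439 between groups, and by 0.429 against 0.426 when read from the identifier.

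On log2(value + 1), limma 3.58.1 (R 4.3.3) fitted 1 mean for each of 6 groups with a trended eBayes, with 5 residual and 8.4 total degrees of freedom. Fold changes are on this scale and understate low genes. DMSO at 72 h, with 1 library, was taken to vary as the others do. Two-sided p-values were adjusted by Benjamini-Hochberg. The script was tested on simulated data. Intervals cover the spread between libraries. The members, lists and comparisons were chosen with earlier results of these data known. Named were all 10 members, up to 4 called genes of each list by size at 120 h, the most abundant gene where fewer than 2 were called, and 5 genes most like each of MYC, MYB and MXD1. ALDH8A1, AHI1, CASC11, CCDC26, MLXIP, MLXIPL, ARRDC4, BCL2, GNL3 and, among the MYB targets, ELANE were added after their values were seen. Alternatives changed the pseudocount, filter, scaling, eBayes settings, weights, block and libraries. Promoters and positions are from RefSeq, exon lengths and overlaps from GENCODE 29. Figures used matplotlib 3.10.9.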

Additional observations from a re-analysis of the deposited data

Results flagged for a closer look

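The decitabine effect on MYC differed between times by the test of the difference itself. The effect at 72 h minus that at 6 h was -1.87 on the log2 scale and the effect at 120 h minus that at 6 h was -2.17, with MYC low in both decitabine libraries of each later time. The difference between 72 h and 6 h lost its call in 13 of 20 alternatives, among them quantile normalisation, equal totals, the replicate block and each fit without a 6 h or 120 h library, whereas that between 120 h and 6 h held in all 22. The effect on MXD1 differed in the opposite sense, its effect at 120 h minus that at 6 h being 2.18, with MXD1 high in both decitabine libraries at 120 h.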

How the results depend on the processing

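Over 23 alternatives at 120 h, MYC and MXD1 kept their direction and their calls. No member was called at 6 h or between DMSO times under any alternative run. Members called at 72 h numbered 1, but 0 in the libraries of that time alone, 3 with all DMSO libraries as reference, and 1 to 4 with libraries left out in turn. Members called for the effect at 72 h minus that at 6 h numbered 1, but 0 with no filter, quantile normalisation, equal totals or no trend, and 0 to 4 with libraries left out. For the effect at 120 h minus that at 72 h the count was 0, and 0 to 3 with libraries left out. For decitabine at 120 h minus 72 h it was 0, but 1 with a pseudocount of 5 or no filter, and 0 to 3 with libraries left out. Genes known to be activated by MYC that fell at 120 h numbered 20, and 7 to 27 with libraries left out. Genes known to be repressed by MYC that rose numbered 3, but 5 with equal totals, in the 120 h libraries alone or without all 72 h libraries (chosen after seeing the data), 6 with sample weights, and 2 to 5 with libraries left out. GNL3 at 72 h turned to 0.43 without decitabine 72 h replicate 1, and was -1.03 without replicate 2. The causes were not tested. Over all genes, 2570 were called at 120 h, but 5031 with sample weights, 4252 in the 120 h libraries alone, 4961 without all 72 h libraries and 798 to 4949 with libraries left out. At 72 h 353 were called, but 80 with sample weights, 2917 with all DMSO libraries as reference, 0 in the 72 h libraries alone and 143 to 4759 with libraries left out. For 120 h minus 6 h effects 953 became 589 with no filter, 3021 with sample weights, 2981 without all 72 h libraries and 225 to 2988 with libraries left out. For 72 h minus 6 h effects 99 became 61 with equal totals, 29 with sample weights and 6 to 3741 with libraries left out. For 120 h minus 72 h effects 0 became 6 with no filter and 0 to 2901 with libraries left out. Among the fits with 1 library left out, the highest of these counts each came without decitabine 72 h replicate 1, and the lowest at 72 h and 120 h without decitabine 120 h replicate 1. The median of all genes at 120 h, 0.07, was -0.1 with quantile normalisation, and with equal totals it was 0.22 for 120 h minus 72 h effects and 0.2 within decitabine. Precision is limited by 5 residual degrees of freedom and 2 libraries a group, and the effect of depth was not tested.

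With the replicate number as a block, members called at 120 h stayed at 3 and those for 72 h minus 6 h came to 0, while all genes called at 72 h came to 215 and those for 72 h minus 6 h to 53. Same-numbered libraries deviated with correlations of -0.08 to 0.12, so the numbers were not taken to pair the samples.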

Other observations

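Some genes had levels whose pattern over the 11 libraries was most like that of a member, by Pearson's r of log2 values, given as a description since libraries of a group share their condition. Most like MYC were SAMM50 (0.993), GJA3 (0.991), MCCC2 (0.989), MAT2A (0.988) and YARS1 (0.988). SAMM50 helps insert proteins into the mitochondrial outer membrane, MAT2A makes S-adenosylmethionine, and YARS1 is a tyrosyl-tRNA synthetase. All 5 fell at 120 h, by log2 fold changes of -0.78 for SAMM50, -1.29 for GJA3, -0.87 for MCCC2, -0.64 for MAT2A and -1.0 for YARS1. The 120 h libraries were among those used to choose them, so this direction follows from the choice and is no separate result. Most like MXD1 were RNF149 (0.987), PPP2R5A, KCTD12, C5AR2, a complement receptor, and ITM2B (0.986 each). All 5 were called higher at 120 h, a direction that follows from the choice as well.

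Most like MYB were FAM3C2 (0.992), IK (0.988), CLASP2 (0.985), SMC2 (0.983) and SMC1A (0.982), of which SMC2 and SMC1A encode condensin and cohesin subunits. None of the 5 was called at 120 h. Ranked by Spearman's rho instead, CLASP2 stayed among the 5 genes most like MYB and ITM2B among the 5 most like MXD1, and no other gene of these lists stayed. Among the 10 genes themselves, r was 0.92 between MLX and MXI1, 0.89 between MLX and MYB, -0.82 between MYC and MXD1, and 0.31 between MYC and PVT1. The high values of MLX, MXI1 and MYB in decitabine 72 h replicate 2 enter these correlations.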
